A study of Mus musculus with 23 samples.

Results

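Undiluted TMT (trimethylthiazoline, a pungent compound of fox secretions that mice avoid without learning) was set against control exposure within the same litters of mice, and RNA bound to phosphorylated ribosomes of the olfactory epithelium was sequenced. The comparison takes 8 of the 23 libraries of the series: those labelled 100% TMT in litters 1 to 4, and the controls of litters 1 to 4 in the same experiment. Per the labels, all mice were c57BL/6 at postnatal day 21 and were exposed for 1 h, RNA was captured from homogenates through phosphorylated S6, a protein of the small ribosomal subunit (pS6), and the cDNA was amplified and tagged with a Nextera kit. The 4 libraries at 1% TMT from the same litters shared in the estimate of the spread and are given beside the 100% values near the end. The number of mice behind a library and the substance given to the controls are not stated in the labels, and the libraries of litter 1 carry another code series in their titles than those of litters 2 to 4, so batch and litter cannot be told apart.

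An odor activates an olfactory sensory neuron through the single odorant receptor gene that the neuron expresses. Activity leads to phosphorylation of S6 on the ribosomes of that neuron, so the pull-down enriches its RNA, including the RNA of its receptor. Such libraries therefore mix the weight of each cell in the pull-down with changes of RNA inside a cell during the exposure. In a pull-down from whole tissue, more captured cells of a type and more RNA per cell cannot be told apart.

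Unless stated otherwise, values are CPM, counts of uniquely aligned reads relative to the library total as scaled by edgeR's TMM factors, and 4 values in a row are litters 1, 2, 3 and 4. A gene rose or fell where edgeR's quasi-likelihood test with litter as a block gave a Benjamini-Hochberg adjusted p under 0.05 over all genes tested. Fold changes are log2 values of 100% TMT minus control, with their standard error (SE).

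The tissue matched its label in both groups. Omp, the olfactory marker protein of mature neurons, stood at 355, 323, 396 and 388 CPM with 100% TMT and at 316, 415, 409.8 and 226 CPM in controls. The 17 listed markers of sustentacular cells, the supporting cells of the epithelium, summed to between 16980.5 and 20879 CPM with 100% TMT and between 14894 and 16379 CPM in controls, and 17 markers of Bowman glands and other secretory cells to between 66697 and 104314 CPM with 100% TMT and between 43687 and 97139 CPM in controls. RNA of cells other than neurons therefore made up part of every library.

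The libraries held 2672161 to 8347796 counts with 100% TMT and 4069851 to 7609265 in controls. They differed in base composition: the slope of log2 CPM on transcript GC content, per 10 percentage points, was -0.485, -0.054, -0.142 and -0.648 with 100% TMT and 0.038, 0.706, 0.426 and 0.322 in controls. GC-poor transcripts thus stood higher relative to GC-rich ones in every 100% TMT library than in the control of its litter. The cause was not tested. The 100% TMT library of litter 3 stood apart on the second principal component (-166.6, with all other libraries of the experiment between -16.8 and 36.8). Odorant receptors took 0.193%, 0.0481%, 0.0499% and 0.173% of counts with 100% TMT and 0.121%, 0.0232%, 0.0362% and 0.0326% in controls, and the 95% Wilson intervals of the 2 groups did not overlap in any litter. These intervals cover counting error only. Across litters the groups overlapped, with the control of litter 1 (0.121%) above the 100% TMT libraries of litters 2 and 3. Whether the receptor share follows from the odor or from base composition was not tested by these shares.

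**Figure D1:**
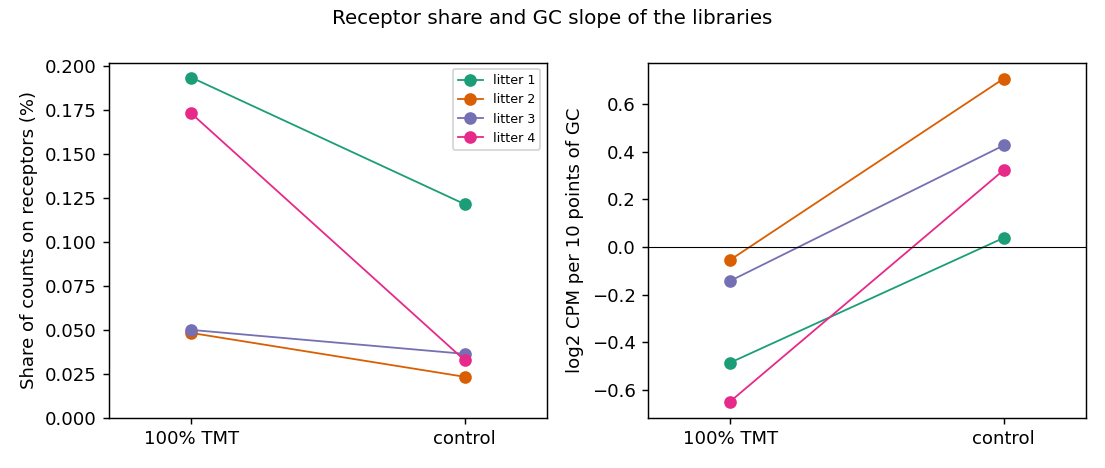
Share of counts on odorant receptors in percent (left) and slope of log2 CPM per 10 points of transcript GC content (right) in the 100% TMT and control library of each litter, joined by lines. In every litter the 100% TMT library has the larger receptor share and the lower slope; the 100% TMT shares run from 0.0481% to 0.193% and the control shares from 0.0232% to 0.121%.

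With 100% TMT, 244 of 13233 genes tested rose (1.84% of all tested) and 70 fell (0.529%), or 306 genes in all when genes with near-identical counts are taken as 1. Among them were 10 odorant receptors and 304 other genes. The calls need the pairing of litters: without the replicate block edgeR called 0 genes (unadjusted p under 0.05 in 1102 that were higher and 842 that were lower), with a smallest adjusted p of 0.0964, while DESeq2 with the block called 919 higher and 454 lower. They also move with the litters used. Without litter 1, 2, 3 or 4, 153, 1, 0 and 15 genes were higher, and 26, 0, 0 and 2 were lower. Without litter 3, where none passed, the smallest adjusted p was 0.0747, and an unadjusted p under 0.05 was found in the higher direction for 1432 genes and in the lower for 693. Without litter 2 those unadjusted counts were 1152 and 804. With the 8 libraries alone, which leaves 3 residual degrees of freedom, 28 of 12173 genes rose (0.23%) and 1 fell (0.00821%).

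Of the odorant receptors, 9 rose and 1 fell, among 135 with enough counts to be tested of 1122 listed in the files. Read against 1.84% of all genes, 9 of 135 is a larger share, but a receptor could enter the test through high counts in odor libraries alone, so the choice of the 135 depended in part on the rise. The median log2 fold change was 1.34 over the tested receptors and 0.01 over the other 13098 genes. Receptor transcripts are GC-poor (median 42.7% against 50.7% over the genes tested), and after correction of each library for GC content and length the receptor median was 0.60, against 0.12 over all genes. In 340 receptors all 8 libraries held 0 counts, which allows up to 3 counts a library.

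Olfr1395, on chromosome 11 (49142274 to 49150453 of GRCm38), had the smallest p of the receptors and the smallest SE. It stood at 37.7, 27.4, 17.96 and 19.7 CPM with 100% TMT and at 7.20, 5.14, 2.20 and 2.87 CPM in controls. Every 100% TMT library lay above every control, by a log2 fold change of 2.63 (SE 0.31, adjusted p = 0.00603). At 1% TMT it stood at 67.1, 30.8, 31.3 and 25.9 CPM, above the 100% TMT library of every litter. With the 8 libraries alone Olfr1395 missed the threshold (log2 2.66, adjusted p = 0.052), and Olfr30 and Olfr96 were the receptors that rose.

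Olfr30, also on chromosome 11 (58454105 to 58462270), stood at 45.9, 23.4, 24.7 and 60.97 CPM with 100% TMT and at 10.4, 5.14, 3.62 and 12.3 CPM in controls. The groups did not overlap, and the log2 fold change was 2.33 (SE 0.33, adjusted p = 0.0121). Olfr376, on the same chromosome (73371246 to 73377836), stood at 22.003, 13.04, 3.87 and 15.8 CPM with 100% TMT and at 1.35, 0.151, 0.258 and 0 CPM in controls, where it rested on 6, 1, 2 and 0 counts. Its control level was near the limit of detection, so that its log2 fold change of 5.04 (SE 0.75, adjusted p = 0.0143) is imprecise. Olfr96, on chromosome 17 (37220146 to 37226673), was likewise scarce in controls, at 0.450, 0.151, 0.258 and 0.844 CPM, and stood at 42.1, 11.7, 11.98 and 20.3 CPM with 100% TMT (log2 5.45, SE 0.93, adjusted p = 0.0213).

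The other 5 receptors that rose passed the threshold more narrowly. Olfr531, on chromosome 7, stood at 41.02, 15.3, 11.6 and 41.9 CPM with 100% TMT and at 13.7, 1.36, 4.52 and 2.36 CPM in controls, so that litter 1 of the controls lay within the 100% TMT range (log2 2.65, SE 0.54, adjusted p = 0.0325). Olfr31 stood at 32.4, 8.40, 7.04 and 22.01 CPM with 100% TMT and at 9.45, 0, 0.258 and 0 CPM in controls. Olfr350 stood at 27.2, 6.30, 0.704 and 8.78 CPM with 100% TMT and at 2.25, 0, 0.129 and 0.169 CPM in controls. In both receptors the control of litter 1 was far above the other 3 controls and above the lowest 100% TMT library. Olfr449 (33.6, 15.6, 8.81 and 39.3 CPM with 100% TMT and 10.6, 0.605, 0.258 and 0.169 CPM in controls) and Olfr131 (70.9, 6.15, 3.52 and 59.5 CPM with 100% TMT and 7.43, 0.605, 1.16 and 0.169 CPM in controls) had the same layout. The adjusted p of these 4 lay between 0.0415 and 0.0482. Across litters, 6 of the 9 receptors that rose (Olfr1395, Olfr376, Olfr96, Olfr31, Olfr350 and Olfr131) were highest in litter 1 with 100% TMT, where the control receptor share was also highest.

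Olfr222 was the receptor that fell. It lies on chromosome 11 (59570255 to 59576235), and stood at 10.8, 5.85, 8.10 and 19.5 CPM with 100% TMT and at 31.3, 39.9, 57.4 and 45.2 CPM in controls, without overlap (log2 -2.01, SE 0.37, adjusted p = 0.0267). At 1% TMT it stood between, at 20.8, 17.4, 44.6 and 24.8 CPM, with litter 3 near the control level.

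Over all genes, 615 (4.65%) had every 100% TMT library above every control and 589 (4.45%) every one below. Of the 135 receptors 9 and 1 did so, and 5 of these 10 were among the receptors that passed. In all 4 litters 33 of the 135 receptors were higher and 5 lower with 100% TMT, while among genes other than receptors the shares were 14.6% and 13.7%. The choice of the 135 depended in part on the rise, so these receptor counts are not an independent check of it.

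Base composition and scaling changed which receptors passed. After GC and length correction, 5 of 165 genes that rose were receptors (1.25% of all tested rose and 0.665% fell): Olfr1395 (log2 2.28, adjusted p = 0.01), Olfr30 (2.46, 0.00879), Olfr376 (4.17, 0.0303), Olfr96 (4.72, 0.0289) and Olfr531 (2.21, 0.0499). Olfr222 still fell (-1.90, 0.0384). With the correction fitted apart in 4 bins of abundance, Olfr531 also missed the threshold (adjusted p = 0.0664) and the other 4 stayed. With library sizes taken from receptor counts alone, which makes the receptor total equal in all libraries, 8 of the 10 receptors passed in the same direction, Olfr1395 at a log2 fold change of 1.40 (adjusted p = 0.0421) and Olfr222 at -3.30. Olfr30 (1.09, adjusted p = 0.115) and Olfr531 (1.38, adjusted p = 0.0832) did not. That scaling moved the median log2 fold change of all genes to -1.19, against 0.02 as counted, and every gene named by the rule had a lower value under it. Among them, 7 that passed as counted then had a value of the other sign (Dusp1, Eprs, Gclc, Dmbt1 and 3 Ugt1a genes).

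**Figure D2:**
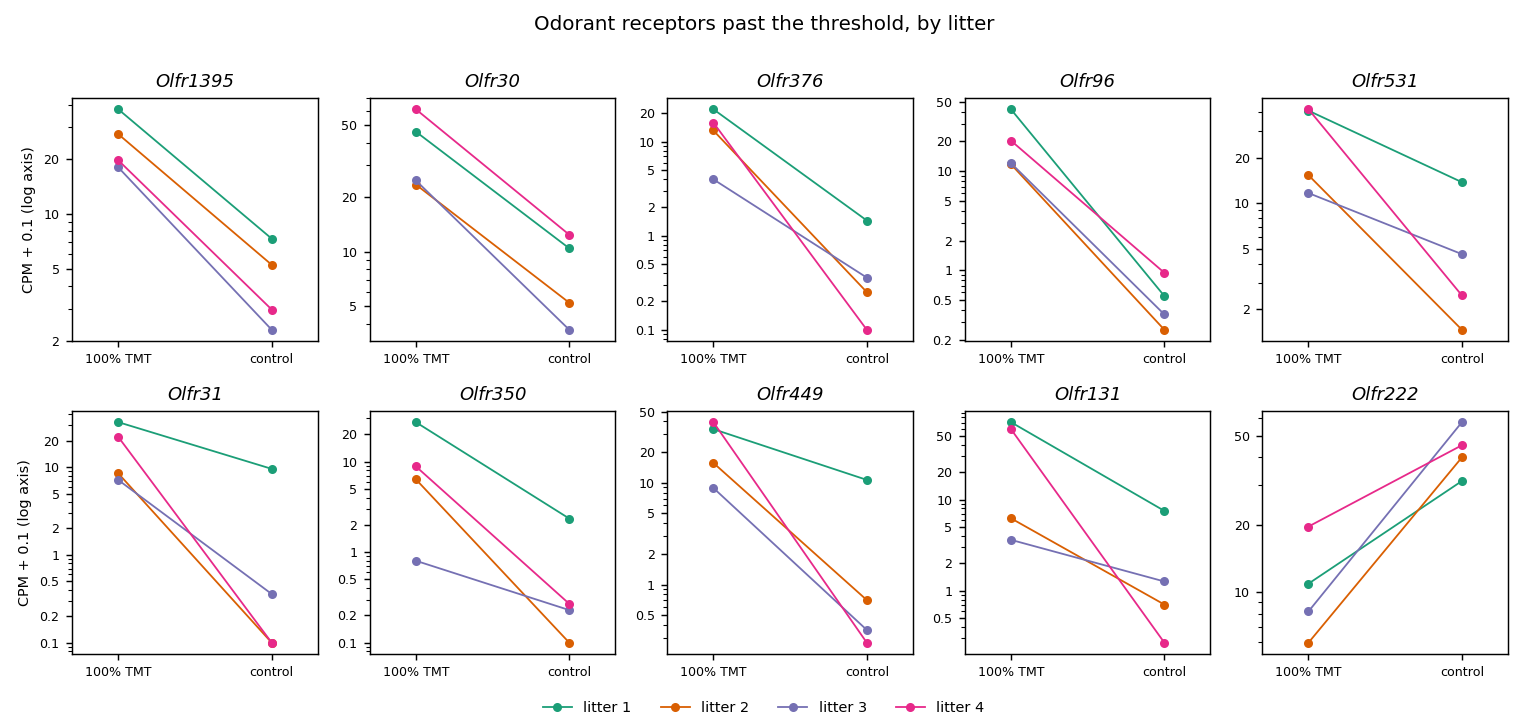
CPM plus 0.1, on log axes, of the 10 odorant receptors past the threshold in the 100% TMT and control library of each litter, joined by lines. Each of the 9 receptors that rose is higher with 100% TMT in 4 of 4 litters, and Olfr222 is lower in 4 of 4; in Olfr31, Olfr350, Olfr449 and Olfr131 the control of litter 1 lies far above the other controls.

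None of the 15 trace amine-associated receptor genes, a small family of olfactory receptors for amines, had enough counts to be tested. Their sum was between 2.25 and 7.83 CPM with 100% TMT and between 1.01 and 11.5 CPM in controls.

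Immediate early genes, which a neuron transcribes within minutes of activity, moved in part. Of 28 tested, 3 rose and 0 fell (1.84% and 0.529% of all genes), with 16 positive fold changes and a median of 0.07, against 0.02 over all genes. The transcripts of this list are GC-rich (median 55.8%, against 50.7% over the genes tested). After GC and length correction the list median was 0.44, against 0.12 over all genes. Nr4a1, an orphan nuclear receptor induced by activity, stood at 233, 407, 301 and 179 CPM with 100% TMT and at 50.2, 94.05, 58.9 and 111 CPM in controls (log2 1.78, SE 0.29, adjusted p = 0.0213). The groups did not overlap, and litter 4 had the smallest gap. Its relative Nr4a2 stood at 49.97, 75.7, 26.1 and 71.4 CPM with 100% TMT and at 10.6, 44.2, 6.98 and 8.78 CPM in controls, where litter 2 was far above the rest (log2 1.96, SE 0.45, adjusted p = 0.046), and did not pass after GC and length correction (adjusted p = 0.0688). Dusp1, a phosphatase that switches off MAP kinases, stood at 127, 239, 129 and 151 CPM with 100% TMT and at 85.97, 95.9, 108 and 66.8 CPM in controls (log2 0.83, SE 0.19, adjusted p = 0.0477).

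The most used reporters of neuronal activity did not pass. Egr1, a zinc finger transcription factor, stood at 46.99, 40.5, 45.4 and 38.8 CPM with 100% TMT and at 13.3, 16.6, 24.8 and 18.6 CPM in controls. The groups did not overlap, yet the adjusted p was 0.0553 (log2 1.29, SE 0.31). It passed after GC and length correction (log2 1.76, adjusted p = 0.0277); its transcript is GC-rich (57.3% GC). Fos, a subunit of the AP-1 factor, stood at 85.03, 189, 56.7 and 62.1 CPM with 100% TMT and at 15.5, 36.3, 35.9 and 59.1 CPM in controls, with overlap (log2 1.44, adjusted p = 0.0885). As counted, Junb (log2 0.0011) and Ier2 (log2 -0.02) had nearly the same level in both groups. After GC and length correction they came to 0.59 (adjusted p = 0.166) and 0.56 (adjusted p = 0.114), and neither passed.

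The promoters of the 3 immediate early genes that rose are shown because activity is known to reach such genes through CREB, which binds the CRE, a site made of the half-site CGTCA and its reverse TGACG. The windows run from 250 bases before to 50 bases after the RefSeq start (GRCm38.p6), 5′ to 3′ on the gene's strand, with each half-site on either strand in capitals. The windows are chr15:101266596-101266895 (plus strand) for Nr4a1, chr2:57123954-57124253 (minus strand) for Nr4a2 and chr17:26508423-26508722 (minus strand) for Dusp1.
Nr4a1: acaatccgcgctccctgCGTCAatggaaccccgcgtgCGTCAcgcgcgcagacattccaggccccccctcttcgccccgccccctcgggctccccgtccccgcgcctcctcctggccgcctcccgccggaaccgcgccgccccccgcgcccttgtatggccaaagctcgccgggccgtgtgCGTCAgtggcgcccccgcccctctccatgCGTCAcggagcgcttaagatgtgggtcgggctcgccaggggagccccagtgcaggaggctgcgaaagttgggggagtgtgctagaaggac
Nr4a2: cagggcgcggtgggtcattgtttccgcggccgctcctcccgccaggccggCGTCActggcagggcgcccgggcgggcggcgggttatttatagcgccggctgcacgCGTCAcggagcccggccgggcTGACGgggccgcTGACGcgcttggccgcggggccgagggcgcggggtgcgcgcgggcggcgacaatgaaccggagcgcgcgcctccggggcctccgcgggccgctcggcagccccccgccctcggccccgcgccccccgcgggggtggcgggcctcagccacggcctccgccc
Dusp1: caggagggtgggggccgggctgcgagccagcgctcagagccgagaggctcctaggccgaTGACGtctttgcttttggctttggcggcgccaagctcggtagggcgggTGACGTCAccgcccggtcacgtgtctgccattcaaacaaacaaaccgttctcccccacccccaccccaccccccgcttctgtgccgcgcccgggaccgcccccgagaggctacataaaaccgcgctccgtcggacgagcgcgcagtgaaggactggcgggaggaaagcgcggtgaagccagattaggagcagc
Nr4a1 and Nr4a2 hold 4 matches each and Dusp1 holds 3, of which 2 overlap in 1 palindromic CRE. Of the 23 tested immediate early genes with a window in the table, 13 hold at least 1 match, against 21.0% of all 27025 promoters of this length. Among the 13 are Fos, Junb, Egr4, Dusp5, Btg2, Klf2, Klf4, Atf3, Srf and Homer1, which did not pass. A match describes the letters in the window and shows no binding.

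Genes known to follow the activity of olfactory neurons over days gave 1 call in 10 (1.84% of all genes rose), with a median log2 fold change of 0.69. Lrrc3b, a leucine-rich repeat membrane protein, stood at 309.5, 66.6, 166 and 252 CPM with 100% TMT and at 76.5, 32.5, 29.6 and 63.8 CPM in controls, higher in 4 of 4 litters with overlap between litters (log2 1.88, SE 0.23, adjusted p = 0.00603). Pcdh10, an adhesion protein of neuron surfaces, came to log2 1.04 with an adjusted p of 0.0507. S100a5, which binds calcium and marks neurons with recent activity, stood at 1049, 23.99, 17.6 and 368 CPM with 100% TMT and at 66.4, 14.97, 23.9 and 18.7 CPM in controls (log2 1.99, adjusted p = 0.194). Of the 100% TMT libraries it was high in litters 1 and 4, those with the largest receptor shares, and near the controls in litters 2 and 3. The 1% TMT libraries held 1071, 17.8, 16.7 and 70.8 CPM, so that litter 1 was as high there as with 100% TMT.

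Nfil3, a leucine zipper repressor that opposes the PAR factors of the circadian clock, had the smallest p of all genes. It stood at 231, 615, 347 and 264 CPM with 100% TMT and at 84.8, 189, 118 and 121 CPM in controls. The groups did not overlap, and litters kept their order between groups except for litters 3 and 4 (log2 1.45, SE 0.14, adjusted p = 0.00497). The rise was as large after GC and length correction (1.74, adjusted p = 0.000911), after the correction within bins of abundance (1.57, adjusted p = 0.00199) and with the 8 libraries alone (1.48, adjusted p = 0.0235). Without litter 2 (adjusted p = 0.0544) and without litter 3 (0.0747) Nfil3 missed the threshold; over all leave-outs its log2 fold change was 1.36 to 1.56. The median of the 16 tested genes of clock output and of the PAR leucine zipper family was 0.20. Nfil3 was the only one of them past the threshold, where 1.84% of all genes tested rose. Its window (chr13:52980990-52981289, minus strand) is shown with the same site in capitals, of which it holds 1, starting 59 bases before the RefSeq start.
Nfil3: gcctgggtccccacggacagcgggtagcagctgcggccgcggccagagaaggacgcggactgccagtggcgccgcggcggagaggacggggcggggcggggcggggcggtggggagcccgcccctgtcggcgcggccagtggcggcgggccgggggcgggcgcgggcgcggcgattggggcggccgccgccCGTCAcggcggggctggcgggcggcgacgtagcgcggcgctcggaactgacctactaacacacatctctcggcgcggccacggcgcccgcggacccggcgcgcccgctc

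Asns, asparagine synthetase, stood at 529.9, 645, 330.4 and 754 CPM with 100% TMT and at 160.5, 105, 92.3 and 229 CPM in controls, without overlap (log2 1.97, SE 0.21, adjusted p = 0.00603). The call held after both corrections (1.76, adjusted p = 0.00646, and 1.61, adjusted p = 0.00783) and with the 8 libraries alone (1.99, adjusted p = 0.02). Asns is a textbook target of ATF4, the factor that answers amino acid shortage and other stresses of translation. Of 39 tested genes of that response 2 rose and 0 fell, against 1.84% and 0.529% of all genes, with 25 positive values and a median of 0.12. The second was Eprs, the glutamyl-prolyl-tRNA synthetase (338, 301, 179.6 and 374 CPM with 100% TMT and 203, 128, 126 and 182 CPM in controls, log2 0.89, adjusted p = 0.0231). Other targets had values on the lower side that did not pass: Chac1 (log2 -0.81, adjusted p = 0.137), Trib3 (-0.67, 0.145) and Ddit3 (-0.64, 0.0977). The tested values of Psat1 (0.84, adjusted p = 0.104) and Atf4 itself (0.05) did not pass either.

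The Asns window (chr6:7693160-7693459, minus strand) is shown for the amino acid response motif TGATGNAA, which ATF4 with a C/EBP partner is known to bind; the match is in capitals and starts 23 bases before the RefSeq start.
Asns: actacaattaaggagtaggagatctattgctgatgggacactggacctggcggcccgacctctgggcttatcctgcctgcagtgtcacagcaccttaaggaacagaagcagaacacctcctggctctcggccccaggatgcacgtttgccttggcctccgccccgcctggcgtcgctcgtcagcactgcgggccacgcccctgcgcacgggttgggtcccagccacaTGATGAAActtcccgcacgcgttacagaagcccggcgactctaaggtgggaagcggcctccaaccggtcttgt
The motif is on either strand of 13 of the 32 tested ATF4 genes with a window and of 4.06% of all promoters. Chac1 and Trib3, which did not rise, hold it too.

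Aldh1a1, a retinaldehyde dehydrogenase that makes retinoic acid, stood at 212, 128, 155 and 259 CPM with 100% TMT and at 56.3, 8.01, 22.7 and 42.5 CPM in controls. The groups did not overlap (log2 2.82, SE 0.32, adjusted p = 0.00603), and the call held after both corrections (2.38 and 2.34, adjusted p = 0.00646 and 0.00783). Of 23 tested genes that handle retinoids, Aldh1a1 rose and Crabp1, a carrier of retinoic acid, fell, and the median was -0.16. Over all genes tested 1.84% rose and 0.529% fell. Crabp1 stood at 149, 106, 135 and 113 CPM with 100% TMT and at 254, 225, 277 and 225 CPM in controls (log2 -0.96, SE 0.14, adjusted p = 0.0143), and it did not pass after GC and length correction (-0.48, adjusted p = 0.104).

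The other genes with the smallest p values among those that rose have mixed roles. Renin (Ren1 and Ren2, which shared nearly all their counts) stood at 113, 236, 54.2 and 119.7 CPM with 100% TMT and at 18.2, 62.1, 18.7 and 36.8 CPM in controls (log2 1.94, SE 0.24, adjusted p = 0.00603); it was highest in litter 2 of both groups. Zc3h14, which binds poly(A) RNA, stood at 168, 78.6, 97.6 and 172 CPM with 100% TMT and at 81.02, 12.7, 21.8 and 33.9 CPM in controls (log2 2.06, SE 0.25, adjusted p = 0.00603). BC048546 was the most abundant of these, at 4385, 3691, 4183 and 6212 CPM with 100% TMT and 1863, 687, 1099 and 1840.2 CPM in controls (log2 1.82, SE 0.24, adjusted p = 0.0106). Its groups did not overlap. The remaining 6 were Crot, a peroxisomal carnitine acyltransferase (log2 3.38), Vps54, a tether of vesicles returning to the Golgi (2.67), Ddx1, an RNA helicase (1.88), Psme4, an activator of the proteasome (3.06), Malat1, a nuclear long noncoding RNA (2.44), and Lrrc3b above. All were higher in 4 of 4 litters, and all passed after both corrections. BC048546 and Ren2, however, were not matched to a transcript of the annotation used, so the corrections left them as counted.

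Of 3 listed families of enzymes that process foreign molecules, 2 gave calls. All 10 tested UDP-glucuronosyltransferases, which couple odorants and drugs to glucuronic acid, rose, but they are 3 measurements when near-identical counts are taken as 1: the Ugt1a genes share their last exons, and Ugt2a1 and Ugt2a2 nearly all their counts. Ugt2a1, the olfactory member, stood at 928, 798, 1002 and 1028 CPM with 100% TMT and at 649, 33.4, 170.3 and 244 CPM in controls (log2 2.40, SE 0.48, adjusted p = 0.0309). Its 100% TMT values lay close together while controls spread widely, from litter 2 at the bottom to litter 1 at the top. Ugt1a1 stood for the other locus, at 134, 133, 148 and 102 CPM with 100% TMT and 91.1, 55.6, 58.4 and 37.6 CPM in controls (log2 1.15, adjusted p = 0.0213). Of 18 tested glutathione S-transferases, which conjugate electrophiles, 2 rose (1.84% of all genes tested did): Gstm5 (590.3, 583, 588 and 461 CPM with 100% TMT and 454, 38.6, 84.01 and 217 CPM in controls, log2 2.09, adjusted p = 0.046) and Gsta3 (189, 289.7, 268 and 230.1 CPM with 100% TMT and 120.4, 5.59, 35.2 and 67.5 CPM in controls, log2 2.62, adjusted p = 0.0491). None of 26 tested cytochrome P450 genes passed, although 21 had positive values and their median was 0.54. Ugt2a1 did not pass after GC and length correction (1.42, adjusted p = 0.164), nor did Gsta3 (1.84, 0.117), while Gstm5 did (2.22, 0.0286). Of the 10 glucuronosyltransferases 5 passed after it, where 1.25% of all genes rose, with Ugt1a1 among them (0.87, adjusted p = 0.0396). With the correction within bins of abundance Ugt1a1 (0.75, adjusted p = 0.0664) and Gstm5 (2.11, adjusted p = 0.0504) missed the threshold.

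Reg3g, a secreted antibacterial lectin, stood at 2516, 2535, 2504 and 3087 CPM with 100% TMT and at 992, 37.6, 198 and 260.5 CPM in controls (log2 3.80, SE 0.74, adjusted p = 0.03). The 100% TMT libraries lay within a narrow band above all controls, whose values spanned a wide range. Dmbt1, a mucosal defence protein of glands, stood at 3477, 2619.7, 4019 and 2696 CPM with 100% TMT and at 2639.6, 738, 1387 and 1424 CPM in controls, where litter 1 reached the 100% TMT range (log2 1.15, SE 0.21, adjusted p = 0.0268). Both passed after both corrections (adjusted p = 0.0444 and 0.0293 within bins of abundance).

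Chaperones and other genes of the endoplasmic reticulum gave few calls. Hspa5, the chaperone BiP, stood at 455, 456, 397 and 704 CPM with 100% TMT and at 171, 200.04, 224 and 242 CPM in controls (log2 1.24, SE 0.24, adjusted p = 0.0293) and was the 1 gene that rose of 24 tested genes of endoplasmic reticulum stress. Of those, 20 had positive values, with a median of 0.55, while 1.84% of all genes tested rose. Hspa5 did not pass after GC and length correction (0.75, adjusted p = 0.0967). Sec63, part of the channel that admits new proteins, stood at 79.4, 58.9, 40.5 and 113 CPM with 100% TMT and at 19.6, 1.81, 2.20 and 3.71 CPM in controls (log2 4.21, adjusted p = 0.0213), and Ccpg1, a receptor for turnover of this organelle, at 145, 124, 89.1 and 236 CPM with 100% TMT and 69.99, 52.8, 30.1 and 69.5 CPM in controls (log2 1.41, adjusted p = 0.0264). Among 16 heat shock genes, Hspa4l (log2 2.93) and Hsph1 (2.11), which serve Hsp70 chaperones, rose, where 1.84% of all genes tested did. Among 27 genes of oxidative stress, Gclc, which makes the precursor of glutathione, rose (142, 157, 141 and 162 CPM with 100% TMT and 119, 77.4, 64.6 and 99.8 CPM in controls, log2 0.78, adjusted p = 0.0412). As 1 of 27 it stands against 1.84% of all genes tested, and Gclc did not pass after GC and length correction (0.59, adjusted p = 0.076). After that correction Osgin1 rose (1.15, adjusted p = 0.0481) and Gclm fell (-0.77, adjusted p = 0.0442), where 1.25% and 0.665% of all genes did.

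Tubb3, the beta-tubulin of neurons, had the smallest p of the genes that fell. It stood at 253, 205, 268 and 193 CPM with 100% TMT and at 454, 509, 554 and 448 CPM in controls, without overlap (log2 -1.10, SE 0.13, adjusted p = 0.00603). Unique reads cover only part of Tubb3, whose sequence is close to that of other tubulins: in the 100% TMT library of litter 4 it had 1564 unique counts and 4881 estimated counts when reads with several places are shared out. The fall was the same in the estimated counts (log2 -1.11, adjusted p = 0.00759) and smaller after GC and length correction (-0.65, adjusted p = 0.0279, and -0.83, adjusted p = 0.0166 within bins of abundance). Tubb5, the beta-tubulin of dividing and young cells, stood at 4059, 2819, 4617 and 3614 CPM with 100% TMT and at 6371, 6305, 7447 and 5701 CPM in controls (log2 -0.78, SE 0.12, adjusted p = 0.0196), and passed after both corrections too. These were 2 of 16 tested tubulins, where 0.529% of all genes tested fell. Of the 16, 4 had positive values, and the median was -0.33.

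**Figure D3:**
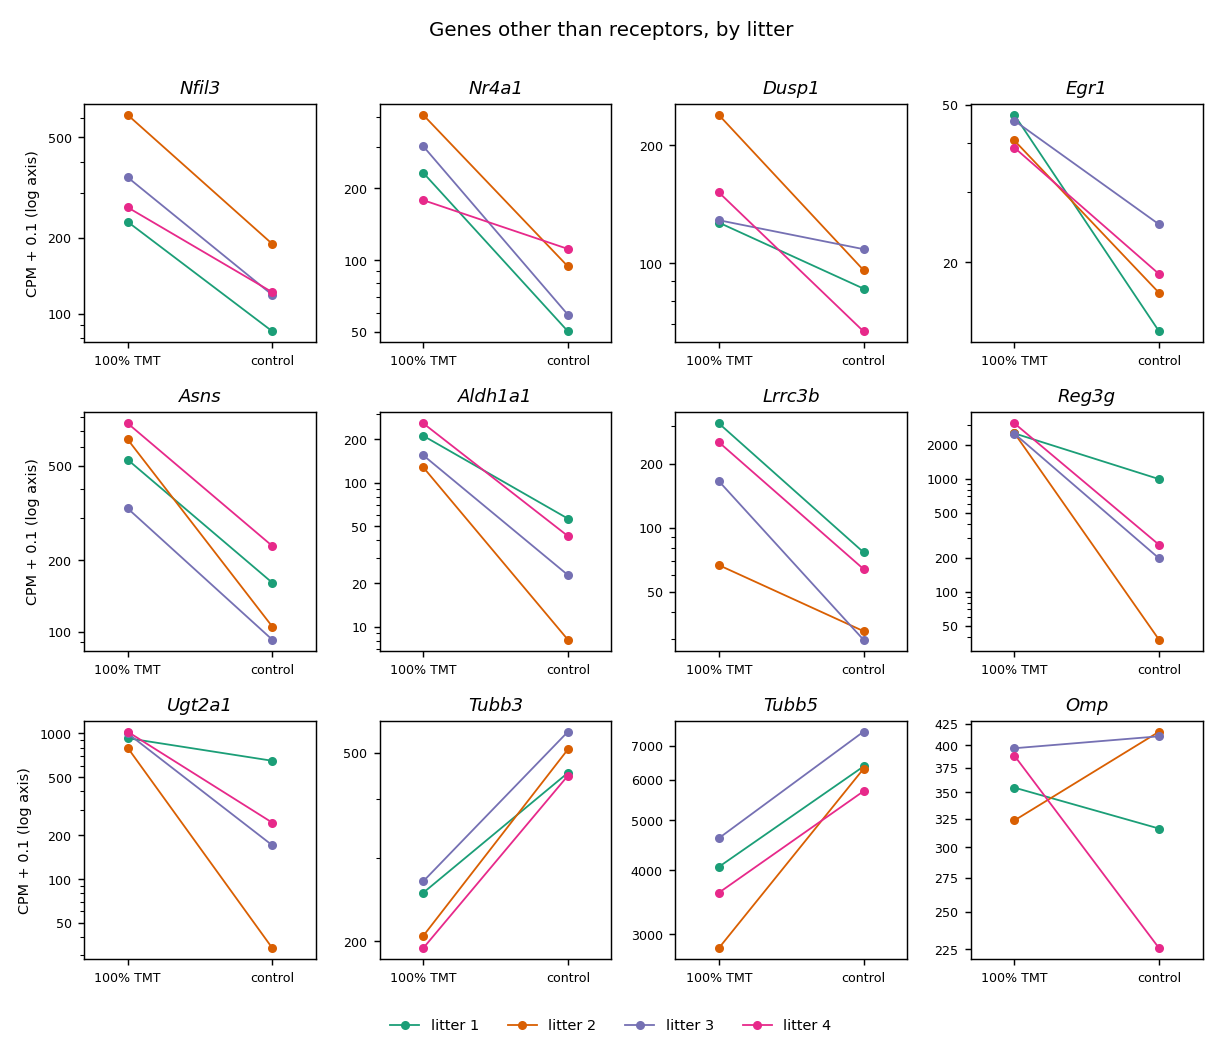
CPM plus 0.1, on log axes, of 12 genes other than receptors in the 100% TMT and control library of each litter, joined by lines. Nfil3, Asns, Aldh1a1, Reg3g and Ugt2a1 are higher with 100% TMT in 4 of 4 litters without overlap of the groups, Tubb3 and Tubb5 are lower in 4 of 4, and Omp is higher in 2 and lower in 2.

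Of 16 tested markers of immature olfactory neurons, which are still growing their axons, 3 fell and 0 rose (0.529% of all genes fell): Tubb3, Marcksl1 (log2 -0.75, adjusted p = 0.0482) and Stmn3 (-0.74, 0.0482). The list median was -0.68, and Gap43, the growth cone protein, came to -0.61 (adjusted p = 0.0564). After GC and length correction the list median was -0.36, and Tubb3 was the 1 marker that fell, where 0.665% of all genes did. Of 31 genes of the actin and myosin cytoskeleton 3 fell: Myl9, a myosin light chain (135, 119, 205 and 165 CPM with 100% TMT and 325, 261, 319.8 and 333 CPM in controls, log2 -1.02, adjusted p = 0.012), Cnn2, a calponin (-0.99, 0.0365), and Marcksl1. Of 33 collagens, Col16a1 fell (45.9, 43.3, 33.5 and 37.7 CPM with 100% TMT and 113, 67.9, 112 and 93.01 CPM in controls, log2 -1.25, adjusted p = 0.0213). None of Marcksl1, Stmn3, Myl9, Cnn2 and Col16a1 passed after GC and length correction, with adjusted p from 0.0688 to 0.488.

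The other leading genes that fell were Apoe, the lipid carrier that glia secrete (625, 634, 648 and 500.2 CPM with 100% TMT and 1157, 888, 1139.7 and 1059.7 CPM in controls, log2 -0.81, adjusted p = 0.0196), Ddah2, which degrades an inhibitor of nitric oxide synthesis (-0.87), Pdlim4 (-0.95), Dctn1, a subunit of dynactin (-0.81), Hn1 (-0.79), the growth factor midkine, Mdk (-1.15), and the splicing factor Sf3a2 (-0.96). Each was lower in 4 of 4 litters. Their transcripts are GC-rich, from 54.5% to 62.2% GC, and none of the 7 passed after GC and length correction.

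Markers of cell types were set beside these genes over whole lists. For comparison, 1.84% of all genes tested rose and 0.529% fell. Of 20 markers of mature olfactory neurons 0 rose and 1 fell: Calb2, a calcium-binding protein (379, 267, 411 and 290.2 CPM with 100% TMT and 582, 557, 626 and 384 CPM in controls, log2 -0.68, adjusted p = 0.0481). Calb2 did not pass after GC and length correction (-0.42, adjusted p = 0.198). Omp had a log2 fold change of 0.13 (SE 0.17, adjusted p = 0.752), higher in 2 litters and lower in 2. The sum over the 20 listed immature markers was lower with 100% TMT in 4 of 4 litters (1948 to 2939.5 CPM with 100% TMT and 2713 to 3948 CPM in controls). The sum over 15 markers of dividing and globose basal cells, the progenitors of neurons, was also lower in 4 of 4 litters (715 to 1072 CPM with 100% TMT and 1096 to 1218 CPM in controls), with Hes6 lower (log2 -0.77, adjusted p = 0.0325) and Ezh2 higher (1.24, 0.0477) among 14 tested. Neither passed after GC and length correction (adjusted p = 0.434 and 0.313). Without Hes6 the sum over the other 14 was 366 to 577 CPM with 100% TMT and 367 to 509.95 CPM in controls, higher in 3 of 4 litters, and the list median was -0.14. Sustentacular markers summed higher in 4 of 4 litters, but of 16 tested only the shared measurement of Ugt2a1 and Ugt2a2 passed. The 14 respiratory and ciliated cell markers summed to 3669.98 to 4370.4 CPM with 100% TMT and 1513 to 2108 CPM in controls, with Reg3g the 1 call of 12 tested. Without Reg3g the other 13 summed to 1154 to 1518 CPM with 100% TMT and 1116 to 1861 CPM in controls, higher in 2 litters and lower in 2, so that Reg3g carried the difference of the sum. The 11 ensheathing glia markers summed to 817 to 871 CPM with 100% TMT and 1128 to 1404 CPM in controls, lower in 4 of 4 litters with 1 marker at 0 in every 100% TMT library, with Apoe the 1 call of 9 tested. Without Apoe the other 10 summed to 194 to 316 CPM with 100% TMT and 219 to 264 CPM in controls, higher in 2 litters and lower in 2, so that Apoe carried the fall of the sum. After GC and length correction 1 ensheathing glia marker other than Apoe fell, where 0.665% of all genes did. The part of these cell types in the gene changes above was not tested.

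Lists with no call were the horizontal basal cell (8 tested), microvillar (5), endothelial and fibroblast (13), immune (14), red cell (8), muscle (9) and vomeronasal neuron (5) markers and the cytosolic ribosomal proteins (63). The ribosomal proteins had a median of -0.28. After GC and length correction 1 microvillar marker rose, where 1.25% of all genes did. Red cell markers summed to 2971 to 8589 CPM with 100% TMT and 6699.9 to 12853 CPM in controls. Of 75 nuclear-encoded respiratory chain genes, 1 rose, Uqcrc2 of complex III (log2 1.49, adjusted p = 0.0213). That share is below the 1.84% of all genes, and Uqcrc2 did not pass after GC and length correction (0.86, adjusted p = 0.0661). After that correction 1 other of the 75 rose and 4 fell, where 1.25% and 0.665% of all genes did. Of 208 tested genes of the Zfp series of zinc finger proteins, 1 rose, Zfp869 (12.3, 4.95, 6.34 and 17.8 CPM with 100% TMT and 0, 0.454, 0.258 and 0.338 CPM in controls, log2 4.91, adjusted p = 0.0284). This too is a smaller share than the 1.84% of all genes. Of 22 genes of olfactory transduction, the chloride loader Slc12a2 rose (42.5, 23.4, 11.6 and 48.97 CPM with 100% TMT and 12.8, 1.51, 1.42 and 3.04 CPM in controls, log2 3.20, adjusted p = 0.0143) and the arrestin Arrb2 fell (-0.90, 0.0293). Arrb2 did not pass after GC and length correction (adjusted p = 0.11). Over all genes tested 1.84% rose and 0.529% fell.

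**Figure D4:**
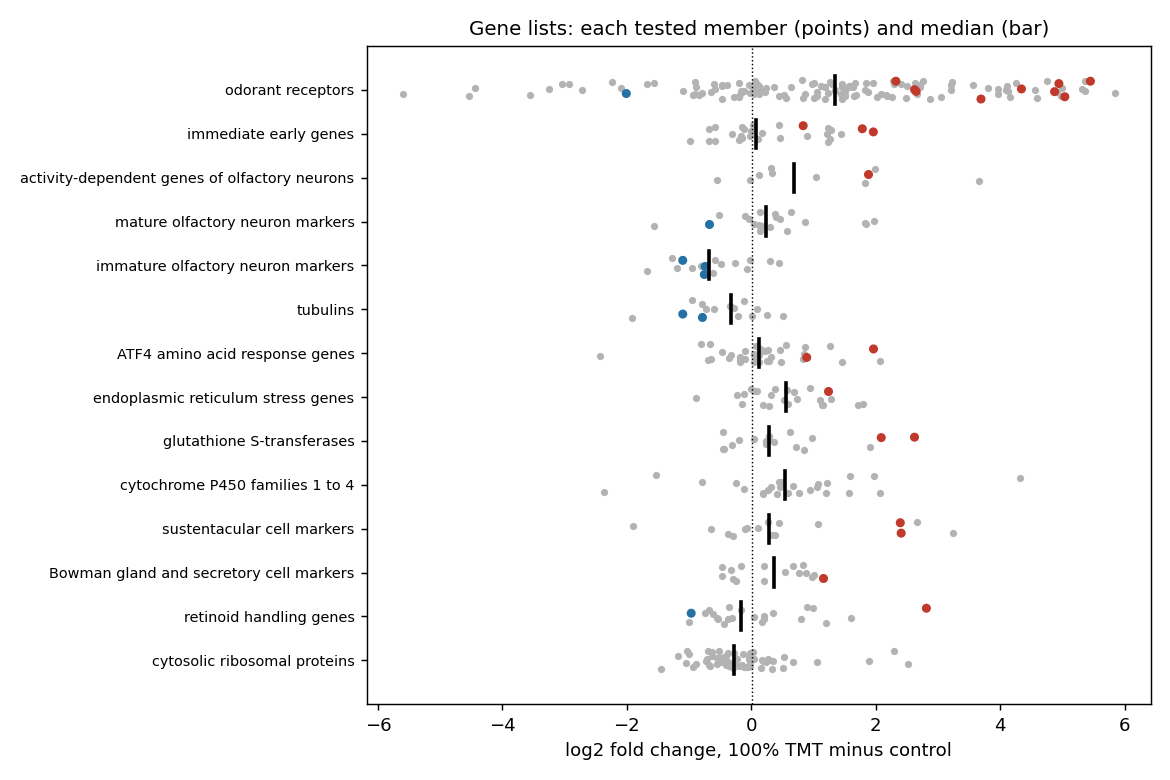
Log2 fold change (100% TMT minus control) of each tested member of 14 gene lists; red and blue points passed the threshold as higher and lower, grey points did not, black bars are list medians and the dotted line is the median of all genes. As counted, the receptors have the highest median (1.34) of these lists and the markers of immature neurons the lowest (-0.68). After GC and length correction the receptor median was 0.60. It then lay below the medians of activity-dependent genes (0.70), Bowman gland and secretory markers (0.68) and cytochrome P450 genes (0.61). A receptor could enter the test through high counts in odor libraries alone.

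Base composition moved with the fold changes over the whole transcriptome. Across 13117 genes matched to an annotated transcript, the log2 fold change and GC content had a Spearman rho of -0.449. It is given as a description since genes are not independent. Median GC content was 45.1% in genes that rose, 57.4% in genes that fell and 50.7% in all tested. Among the GC-poorest of 4 equal bins of genes 147 rose and 2 fell, and in the GC-richest 3 rose and 50 fell. Correcting each library for GC content and transcript length brought rho to 0.065, with 160 other genes higher and 87 lower, of which 110 and 10 had also passed uncorrected. That correction left an imbalance of its own: 73 genes of the GC-poorest bin then fell and 39 rose. With the correction fitted apart in 4 bins of abundance, chosen after the data had been seen, 65 genes rose (0.491%) and 35 fell (0.264%), and the GC-poorest bin held 22 that rose and 19 that fell. Of the genes other than receptors, 57 rose and 8 fell in all 3 fits. They include Nfil3, Asns, Aldh1a1, Lrrc3b, renin, BC048546, Reg3g, Dmbt1, Nr4a1, Dusp1 and Pim3 among those that rose, and Tubb3 and Tubb5 among those that fell. BC048546, Ren2 and Cldn25, counted among the 57, were not matched to a transcript of the annotation used and were left uncorrected. The corrections are therefore no check of these genes.

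**Figure D5:**
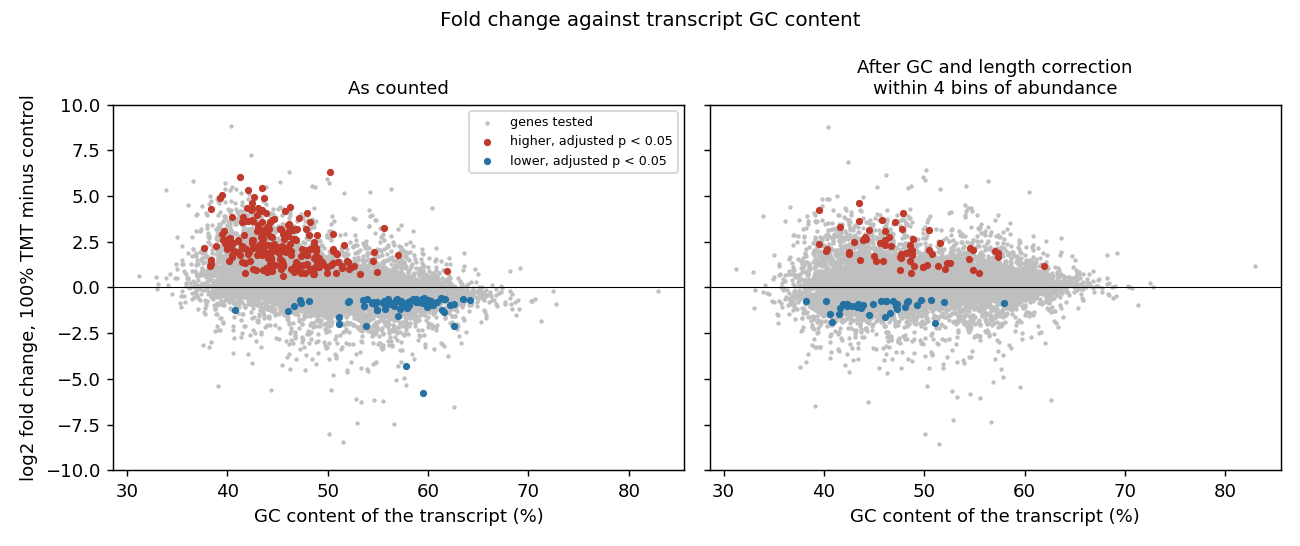
Log2 fold change (100% TMT minus control) against transcript GC content in percent, as counted (left) and after GC and length correction within bins of abundance (right); each point is a gene, and red and blue points passed the threshold as higher and lower. As counted, 147 of the genes that rose lie in the GC-poorest of 4 equal bins and 50 of those that fell in the GC-richest; after the correction these are 22 and 1.

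A set of 25 genes passed as counted, after GC and length correction and with the 8 libraries alone. Beside Nfil3, Asns, Aldh1a1, Lrrc3b, renin, Zc3h14, Crot, BC048546, Psme4 and Tubb3, it included the receptors Olfr30 and Olfr96, Grsf1, a mitochondrial RNA-binding protein (log2 2.32), the kinase Map3k15 (2.51), the tetraspanin Tspan8 (3.84), Fut8, which adds core fucose to glycoproteins (3.07), Hspa9, the Hsp70 of mitochondria (1.92), Prom1, a protein of membrane protrusions (4.18), Phf14 (2.33), the potassium channel Kcnj15 (3.12), Hspa4l, Sec63 and Ccpg1. Kcnj15 stood at 308, 115, 97.6 and 202 CPM with 100% TMT and at 71.3, 8.32, 16.4 and 15.5 CPM in controls, and Fut8 at 476, 237, 214 and 379 CPM with 100% TMT and 136, 34.8, 14.9 and 36.3 CPM in controls. In both, litters 1 and 4 were highest with 100% TMT. Ren2 and BC048546, counted among the 25, were not matched to an annotated transcript, so the GC and length correction left them as counted.

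The 1% and 100% libraries share their controls, so each dose is given with its own values and the doses were tested against each other directly. Between 100% and 1% TMT, 0 genes were higher and 0 lower (0% each); unadjusted p values under 0.05 numbered 567 and 501, with a smallest adjusted p of 0.0646, that of Nfil3. Against controls, 1% TMT gave 1 gene higher, Olfr1395 (0.00756%), and 0 lower (0%), where unadjusted p values under 0.05 numbered 648 and 299. In order of dose, Olfr1395 averaged 4.35 ± 2.28 CPM in controls, 38.7 ± 19.1 CPM at 1% and 25.7 ± 8.99 CPM at 100% (SD, n = 4 each). The difference of 100% minus 1% was -0.56 on the log2 scale (SE 0.28), too small against its error to order the doses. Olfr376 stood at 0.440 ± 0.616 CPM in controls, 17.7 ± 5.17 CPM at 1% and 13.7 ± 7.54 CPM at 100% TMT. Olfr96 stood at 0.426 ± 0.305 CPM in controls, 2.56 ± 4.25 CPM at 1% and 21.5 ± 14.3 CPM at 100% TMT, and its difference between doses was 3.93 (SE 0.85, adjusted p = 0.408).

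Nfil3 averaged 128 ± 43.5 CPM in controls, 164 ± 65.2 CPM at 1% and 364 ± 174 CPM at 100% TMT, with a difference of 1.12 between the doses (SE 0.14). Nr4a1 averaged 78.6 ± 28.9 CPM in controls, 108 ± 44.3 CPM at 1% and 279.8 ± 98.5 CPM at 100% TMT. Asns averaged 147 ± 62.5 CPM in controls, 266 ± 89.6 CPM at 1% and 565 ± 181 CPM at 100% TMT, and Tubb3 averaged 491 ± 50.3, 365 ± 41.9 and 229.9 ± 36.1 CPM in the same order. In each of these 4 genes the mean at 1% lay between the others, and none of the differences between doses passed. After GC and length correction, chosen after the data had been seen, 4 genes were higher at 100% than at 1% TMT: Nfil3, Dmbt1, Lcn3, a lipocalin of nasal glands, and Pim3, a serine kinase.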

How the data were processed

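The authors aligned and counted with tools that include Bowtie and bedtools on mm10 (GRCm38), per the submitters' processing notes; their versions, settings and annotation: not given in the sources used here. A deposited file has 23481 gene symbols, 20 columns of values and no header line. The first deposited column holds whole numbers and was read, from the values, as raw counts of uniquely aligned reads. The last deposited column was read as estimated counts that share out reads with up to 20 places; it was rounded to whole numbers and used as an alternative. Near-identical genes lose unique reads, and without strand in the counts overlapping genes cannot be told apart. Since reads lack molecular identifiers, intervals and the limit of 3 counts for a 0 cover counting error only.

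Counts of the 12 libraries of the TMT experiment were fitted in edgeR 4.0.16 (R 4.3.3): filterByExpr with a minimum count of 10, TMM, litter as a block, the 2-sided quasi-likelihood F test, and Benjamini-Hochberg adjusted p over 13233 genes and a threshold of 0.05. With litters named in the labels, the numbers pair libraries. In deviations from the group means, 100% TMT and control libraries of 1 litter correlated across genes at 0.266, 0.071, 0.056 and 0.019; the best control of another litter gave -0.057, 0.031, 0.038 and 0.055, above the own litter for litter 4. P-values measure the spread that remains after group and litter are fitted, over all 12 libraries, those at 1% TMT included. The labels do not number the mice of a litter. Transcript GC content and length come from GENCODE M21 (21911 symbols matched) and the coordinates of genes likewise; promoter windows come from RefSeq (GRCm38.p6). GC and length were corrected with a smooth offset per library. The fit was tested on simulated data with known changes. Members and lists were chosen with earlier results of these data known. Genes named are every receptor past the threshold, the 12 other genes with the smallest p in each direction, a fixed set of reporters, list members past the threshold (up to 4 a list) and genes that passed in 3 fits; list members that did not pass, Lcn3 and Pim3 were picked after their values were seen.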

Additional observations from a re-analysis of the deposited data

Results flagged for a closer look

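In groups of 4 libraries, a value was set apart where its gap to the nearest other was most of the group's range (Dixon's test at 95%); chance does this in about 1 of 20 groups, and 17 of 160 groups were set apart. The explanation of these values was not tested.

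In 10 genes the value set apart was the control of litter 1, which was above the other 3 controls. That library had 9.45 CPM of Olfr31, 2.25 of Olfr350, 10.6 of Olfr449 and 7.43 of Olfr131. It had 132 CPM of Ddx1, 12.8 of Slc12a2, 34.0 of Map3k15, 44.8 of Tspan8, 19.6 of Sec63 and 71.3 of Kcnj15. Its receptor share of 0.121% was set apart as well. For each of these genes the 100% TMT library of litter 1 was higher than this control.

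The control of litter 2 was high in Nr4a2, at 44.2 CPM. With 100% TMT, litter 4 was low in Apoe (500.2 CPM) and Gstm5 (461 CPM) and high in Reg3g (3087 CPM), and litter 2 was low in Hsph1 (54.1 CPM) and Cnn2 (33.0 CPM).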

How the results depend on the processing

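The counts of genes that rose (244), fell (70) and of receptors that rose (9) moved with several choices; the cause was not tested. Without the replicate block they were 0, 0 and 0. With the 8 libraries alone they were 28, 1 and 2, where fewer libraries and genes enter. DESeq2 with the block gave 919, 454 and 27, and no filter gave 399 genes higher and 160 lower. With GC and length correction 5 receptors rose; with the correction within 4 bins of abundance the counts were 65, 35 and 4. Estimated counts gave 142 genes lower and 15 receptors higher. With estimated counts and the GC and length correction 169 genes fell, 168 of them other than receptors, against 87 with unique counts. Leaving out 1 litter or 1 library gave 0 to 353 genes higher, 0 to 135 lower and 0 to 9 receptors higher. The lowest counts of genes that rose came without litters 2 and 3 and without the 100% TMT library of litter 4 (1, 0 and 1), and without control litters 2, 3 and 4 they were 30, 41 and 38. DESeq2 size factors in edgeR, and a filter on the mean CPM, left all 3 counts within 1.5 times. Between 100% and 1% TMT, 4 genes rose after GC and length correction, against 0 as counted.

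Of the 79 genes with values by the naming rule, 78 kept their direction under every alternative other than library sizes from receptor counts, which was run for genes other than receptors after the data had been seen. That scaling, which moved the median of all genes to -1.19, gave the other sign in 9: log2 values were -0.188 for Pcdh10, -0.372 for Dusp1, -0.322 for Eprs, -0.434 for Gclc, -0.076 for Dmbt1, -0.0369 for Ugt1a6a, -0.0419 for Ugt1a1, -0.0302 for Ugt1a6b and -1.07 for Omp (adjusted p = 0.0388). Omp, which did not pass, had log2 values from -0.096 to 0.29 over the leave-outs and was below 0 without litter 4 or either of its libraries (-0.063 without its control, -0.019 without its 100% TMT library).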
